A study of Mus musculus with 3 samples.

Results

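Olfactory ensheathing glia were found as 174 of 43464 nuclei (0.400%, 95% interval 0.343 to 0.464%) in single-nucleus RNA-Seq libraries of mouse prefrontal cortex (PFC). A nucleus was a member when it held at least 2 UMIs (unique molecular identifiers, each 1 captured transcript) of *Apod* and at least 2 UMIs summed over *Fabp7*, *Frzb* and *Prss56*. It also had to hold no UMI of *Aqp4*, a water channel of astrocytes, no UMI of the myelin glycoprotein genes *Mog* and *Mag*, and at most 1 UMI summed over the neuronal genes *Slc17a7*, *Gad1* and *Gad2*. The rule kept 7 nuclei in the C57BL/6 library, 35 in the BTBR library and 132 in the *Nav1* KO library. Ensheathing glia belong to the olfactory nerve and bulb rather than to the PFC, and the sample labels name the tissue as prefrontal cortex and the cell type as neurons, so the members are described below by the rule and by the genes it did not use.

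Each of the 3 groups was 1 library of nuclei from male mice of 6 to 8 weeks. The C57BL/6 library was wild-type tissue pooled from 5 mice. The *Nav1* KO library pooled 4 mice with a homozygous CRISPR deletion in the first exon of *Nav1*, a gene for a microtubule-associated protein of growing neurites, on the C57BL/6J background. The BTBR library came from the inbred strain BTBR T<+> Itpr3<tf>/J, and its number of mice was not given in the sources used here. C57BL/6 and *Nav1* KO nuclei were sorted on NeuN staining as a mix of NeuN+ and NeuN− nuclei, so the share of any glial type was partly set by the sort, and whether the BTBR nuclei were sorted was not given in the sources used here. With 1 pooled library per group there was no replicate, and no test between libraries was possible. Intervals given below cover counting error only. After nuclei with fewer than 200 genes or at least 10% mitochondrial counts were left out, 14630, 14778 and 14056 nuclei remained in the C57BL/6, BTBR and *Nav1* KO libraries, with 38704723, 48948184 and 50965774 UMIs. Values listed without library names follow this order.

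Ensheathing glia are the glia that wrap bundles of olfactory sensory axons on their way from the nasal epithelium into the outer layer of the olfactory bulb. They arise from the neural crest, share the transcription factor *Sox10* with Schwann cells and oligodendrocytes, and do not make myelin. Those of the inner nerve layer are known for the peptide gene *Npy*, and those of the outer layer for the neurotrophin receptor gene *Ngfr*. They are studied because olfactory axons keep growing into the bulb through adult life.

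The 4 genes that chose the members have the following levels, which are a description and not a finding. Levels are CPM, the UMIs of a gene divided by all UMIs of a set of nuclei within a library and scaled to the same total for every set. *Apod*, which encodes a lipid-binding lipocalin, stood at 6804, 2108 and 4389 CPM in the members. *Fabp7*, a fatty acid-binding protein gene of radial and ensheathing glia, stood at 2182, 740 and 1174 CPM. *Frzb*, a secreted Wnt antagonist gene, was nearly level across the libraries at 385, 433 and 400 CPM. *Prss56*, a serine protease gene, stood at 770, 1047 and 459 CPM and had a UMI in 6 of 7, 30 of 35 and 57 of 132 members. Over all libraries *Fabp7* had a UMI in 141 members, *Frzb* in 99, *Prss56* in 93, and all 3 of them in 36.

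At the edges of the rule, 26 members held exactly 2 *Apod* UMIs, 53 held exactly 2 over the other 3 genes and 46 held 1 neuronal UMI. Just outside it, 33 nuclei fell short with 1 *Apod* UMI, 96 with 1 UMI over the other 3 genes, and 30 were removed for exactly 2 neuronal UMIs. Of 376 nuclei with enough of both marker sets, 66 were removed for *Aqp4*, 75 for *Mog* or *Mag* and 173 for neuronal UMIs, with some removed for more than 1 of these. The members were small, with medians of 1021, 1755 and 1798 UMIs and 625, 837 and 831 genes, and 0 of them lay among the 10% of nuclei with the most UMIs of their library. Their median mitochondrial share was 3.99, 0.822 and 1.23%, against 0.529, 0.387 and 0.388% over all nuclei, so the 7 C57BL/6 members carried the highest share. With a limit of 5% mitochondrial counts, 5, 34 and 115 members were left and the *Nav1* KO share of nuclei was 24.0 times the C57BL/6 share (10.0 to 75.4), whereas its part in the gene levels was not tested. Of the barcodes, 66, 71 and 61 occurred in a pair of libraries (C57BL/6 with BTBR, C57BL/6 with *Nav1* KO, BTBR with *Nav1* KO), and none of these was a member in both.

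The C57BL/6 library had the lowest share of ensheathing-glia nuclei and the *Nav1* KO library the highest. The shares were 0.0478% (exact 95% interval 0.0192 to 0.0986%), 0.237% (0.165 to 0.329%) and 0.939% (0.786 to 1.11%), and no interval overlapped another. The *Nav1* KO share was 19.6 times the C57BL/6 share (9.26 to 49.8) and 3.97 times the BTBR share (2.71 to 5.93), and the BTBR share was 4.95 times the C57BL/6 share (2.17 to 13.2). Since the libraries also differed in glia and meningeal cells as a whole, the members were counted among the nuclei of 4 gates, which were the members themselves and gates for astrocytes (at least 2 *Aqp4* UMIs), oligodendrocytes (at least 2 *Mog* and *Mag* UMIs) and meningeal fibroblasts (at least 2 UMIs over *Slc6a13*, *Ranbp3l*, *Slc47a1* and *Foxd1*). They made up 7 of 514 (1.36%), 35 of 780 (4.49%) and 132 of 1105 (11.9%) of those nuclei, which lowered the ratio of *Nav1* KO to C57BL/6 to 8.77 (4.14 to 22.2) and that of *Nav1* KO to BTBR to 2.66 (1.82 to 3.98). After each nucleus was thinned to 1000 UMIs the *Nav1* KO to C57BL/6 ratio was 38.2 (10.2 to 321) and rested on 2 C57BL/6 nuclei, and with the looser rule of 1 UMI in place of 2 it was 9.87 (6.72 to 15.0).

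The other gates did not all move with the members. Oligodendrocyte-gate nuclei, which meet the same limit on neuronal UMIs, had nearly level shares of 1.03, 0.805 and 0.918%, with a *Nav1* KO to C57BL/6 ratio of 0.895 (0.702 to 1.14). Astrocyte-gate nuclei had shares of 0.212, 0.548 and 0.946%, and meningeal-fibroblast-gate nuclei of 2.23, 3.69 and 5.06%, so both followed the same order as the members, with *Nav1* KO to C57BL/6 ratios of 4.47 (3.0 to 6.83) and 2.27 (1.99 to 2.60). Nuclei with markers of mitral and tufted cells, the projection neurons of the olfactory bulb, had shares of 0.793, 5.57 and 4.99%. These neurons were thus 7.02 times as frequent in BTBR (5.78 to 8.61) and 6.30 times as frequent in *Nav1* KO (5.17 to 7.73) as in C57BL/6, while the *Nav1* KO to BTBR ratio was 0.897 (0.810 to 0.993), against 3.97 for the members. Genotype, strain, sort and the tissue taken at dissection cannot be told apart with 1 pooled library per group.

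**Figure D1:**
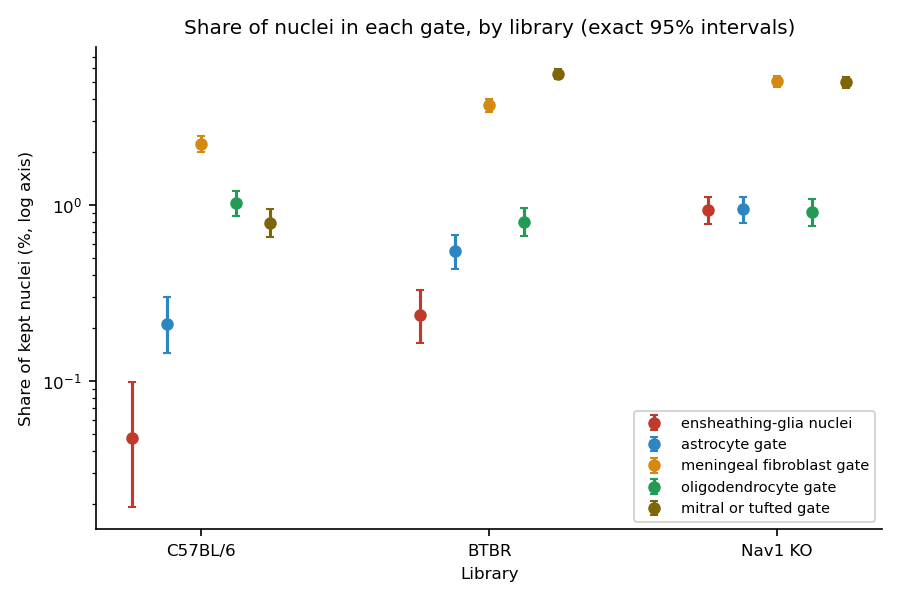
Share of kept nuclei (percent, log axis) that met each gate in the C57BL/6, BTBR and *Nav1* KO libraries, with exact 95% intervals as bars. The ensheathing-glia share climbs from 0.0478% to 0.939% while the oligodendrocyte share stays between 0.805 and 1.03%.

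After the rule genes were set aside, 15 markers of ensheathing glia were left, and they divided in their levels in the members. *Npy* was the most abundant of them, at 4108 CPM (2810 to 5799), 1200 CPM (960 to 1483) and 1582 CPM (1432 to 1744). It stood at 48.6, 8.17 and 53.7 CPM in the astrocyte gate and at 146, 34.1 and 95.9 CPM in the oligodendrocyte gate, and the sets did not overlap. A UMI of *Npy* was found in 7 of 7, 30 of 35 (85.7%) and 107 of 132 (81.1%) members, and over all libraries in 82.8% of members against 8.57% of astrocyte-gate nuclei. At 1000 UMIs per nucleus these shares were 66.4 and 3.51%. *Sox10*, the neural crest and oligodendrocyte lineage factor, stood at 128, 209 and 156 CPM in the members and at 86.1, 158 and 146 CPM in the oligodendrocyte gate, where the sets overlapped. *Kctd12*, an auxiliary subunit gene of GABA-B receptors, stood at 1027 (443 to 2024), 516 (364 to 712) and 603 CPM (511 to 705), and its highest level in a library of the other 3 gates was 50.0 CPM. *Fbln2*, a matrix glycoprotein gene, stood at 385, 293 and 299 CPM in the members and at most at 46.9 CPM in the libraries of the other gates. *Foxd3*, *Mybpc1* and *Erbb3* were the remaining markers with high levels and are described below.

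Other markers of the same list were not seen or were scarce. *Ngfr*, the p75 neurotrophin receptor gene of outer-layer ensheathing glia and Schwann cells, and *Sostdc1* had 0 UMIs in the members of every library. At this depth 0 counts allow up to 385, 41.9 and 11.7 CPM. *Lcat* stood at 0, 0 and 7.78 CPM, *Matn2* at 0, 0 and 27.2 CPM, *Islr* at 0, 27.9 and 35.0 CPM, and *Cryab* at 0, 14.0 and 19.4 CPM. Summed over the 15 markers the members held 8601, 3797 and 5015 CPM with 8, 11 and 13 markers found, and all other nuclei held 387, 348 and 383 CPM. The oligodendrocyte gate held 6695, 4988 and 7207 CPM, above the members in BTBR and *Nav1* KO, so this sum did not set the members apart from the oligodendrocytes. The 7 Schwann cell markers summed to 257, 112 and 128 CPM in the members, and the myelin gene *Prx* was at 0 in the members of every library. Of the genes known for the layers of the olfactory nerve, the inner-layer gene *Npy* was thus found in most members and the outer-layer gene *Ngfr* in none.

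**Figure D2:**
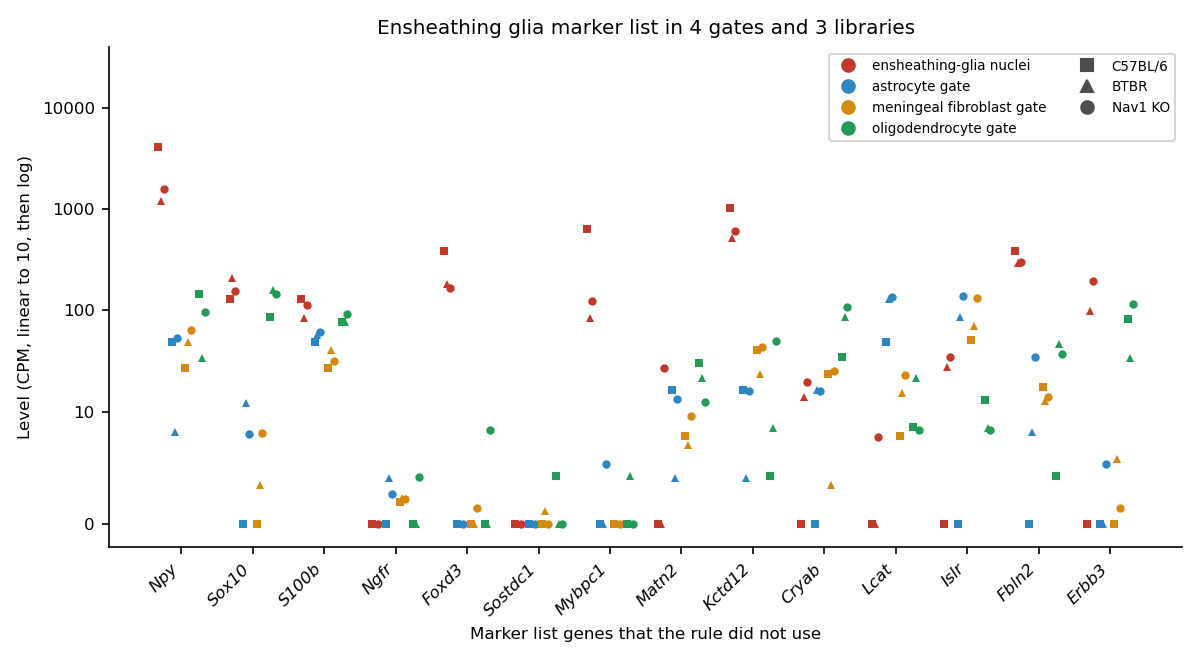
Level (CPM, linear up to 10 and logarithmic above) of ensheathing-glia markers that the rule did not use, in the members and in the astrocyte, meningeal fibroblast and oligodendrocyte gates, with 1 point per library. The 3 member points of *Npy*, *Kctd12* and *Fbln2* lie above every point of the other gates, and *Ngfr* and *Sostdc1* are at 0 in the members.

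Genes that led the members over all other nuclei were ranked by the fold of the summed CPM after 5 CPM was added to each level, over the 2646 genes with a UMI in at least 10% of members. Of these, 489 reached 2-fold and 78 reached 10-fold. The ranking is a description, since every nucleus outside the rule enters the other side. The 15 leading genes ran from 43.4-fold for *Gdpd4* (chr7:97919955-98049663), a glycerophosphodiester phosphodiesterase gene seen in 36.2% of members, down to 21.3-fold for *Erbb3*, a neuregulin receptor gene. *Sash1*, a signalling adaptor gene, was the most widely seen of them, at 1027, 1480 and 1489 CPM in the members, with a UMI in 81.0% of members and a fold of 32.3. *Kctd12* (chr14:102976581-102982637) followed at 30.5-fold. The others included *Vtn* (23.3-fold), which encodes vitronectin, *Mgst1* (23.0-fold), a microsomal glutathione transferase gene, *Hey2* (22.6-fold), a Notch target gene of the bHLH class, and *Fmo1* (21.9-fold), a flavin monooxygenase gene. *Slc43a3* (23.4-fold), *Afap1l2* (22.9-fold), *Paqr6* (22.2-fold), *Clca3a1* (21.5-fold) and the long non-coding gene *Gm29521* (32.6-fold) completed the list, apart from *Foxd3* and its neighbor *Gm12688*. These folds pool the libraries, and the folds within each library differed. *Gm29521* and *Erbb3* had 0 counts in the C57BL/6 members, and *Vtn* had folds of 108, 28.1 and 16.1.

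*Foxd3*, the forkhead factor gene of the neural crest, and the long non-coding gene *Gm12688* led together, at 30.1-fold and 34.2-fold. *Foxd3* lies at chr4:99656299-99658622 on the plus strand of mm10 and *Gm12688* at chr4:99653607-99654983 on the minus strand, with 1315 bases between them. *Foxd3* had 3, 13 and 43 counts in the members (385, 181 and 167 CPM), 0 counts in the astrocyte gate and 2 counts in each of the meningeal fibroblast and oligodendrocyte gates. *Gm12688* stood at 642, 112 and 268 CPM in the members. Its highest level in any library of the other gates was 20.8 CPM. A *Foxd3* UMI was found in 24.1% of members, in 0 of 245 astrocyte-gate nuclei and in 0.126% of meningeal-fibroblast-gate nuclei, and at 1000 UMIs in 14.8% of members. The promoter is shown because the gene and its neighbor run outward from this stretch on opposite strands and both led the members. It is the 150 bases before the start (chr4:99656149-99656298, plus strand, RefSeq, GRCm38.p6), with CG dinucleotides in capitals.
*Foxd3*: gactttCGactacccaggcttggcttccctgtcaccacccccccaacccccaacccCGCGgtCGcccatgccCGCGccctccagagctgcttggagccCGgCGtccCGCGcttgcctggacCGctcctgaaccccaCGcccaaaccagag
The window holds 12 CG dinucleotides, where the median of all promoter windows of this length was 4 and 23.08% held as many.

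The letters ACAAAG and ACAATG, which fall within sequences that SOX factors bind, were searched on both strands in the 250 bases before the start of the 4 rule genes and the 15 leading genes. Of these 19 genes, 14 had a RefSeq promoter and 1 held a match, which was *Apod*, and 25.2% of all 32851 promoters held one. The *Apod* match began 84 bases before the start and is shown with its flanks (chr16:31314867-31314912, minus strand, GRCm38.p6), with the matching letters in capitals.
*Apod*: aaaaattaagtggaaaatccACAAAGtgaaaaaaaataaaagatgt
A match of 6 letters is a description of the window and not a binding site.

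The members were not uniform. In *Nav1* KO, 107 members had a *Npy* UMI and 25 had none, with medians of 1807 and 1365 UMIs. *Prss56* was found in 47.7% of the former and 24.0% of the latter and *Kctd12* in 54.2 and 32.0%, whereas *Foxd3* was found in 19.6 and 36.0%. The members with *Npy* were the deeper ones, so depth moves with the shares of *Prss56* and *Kctd12* and against that of *Foxd3*, and its part in them was not tested. In BTBR the 5 members without *Npy* had a median of 829 UMIs against 1790 in the 30 with it. There *Prss56* was found in 26 of 30 with *Npy* and 4 of 5 without, *Kctd12* in 17 of 30 and 3 of 5 and *Foxd3* in 8 of 30 and 1 of 5. With 5 nuclei without *Npy*, these BTBR shares are too coarse to give a direction.

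The meningeal fibroblast gate was also met by 12 *Nav1* KO members and 2 BTBR members. The *Nav1* KO ones had a median of 2688.5 UMIs and lower levels of ensheathing-glia genes, with *Npy* at 460 CPM against 1770 in the other 120 and *Kctd12* at 190 against 672. They held the collagen gene *Col1a2* at 190 CPM against 9.08 and the proteoglycan gene *Dcn* at 135 against 4.54. Without these members the *Nav1* KO to C57BL/6 ratio of shares was 17.8 (8.40 to 45.3).

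A further *Nav1* KO member, of 2046 UMIs and 887 genes, held olfactory sensory neuron transcripts. It carried 8 of the 11 *Omp* UMIs (olfactory marker protein), 8 of the 9 *Stoml3* UMIs, 31 of the 37 *Gng13* UMIs and 45 of the 50 *S100a5* UMIs of the *Nav1* KO members, beside 3 *Apod*, 8 *Fabp7* and 4 *Npy* UMIs. In C57BL/6 and BTBR members *Omp* and *Stoml3* were at 0.

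Ensheathing-glia nuclei were next compared with the other glia and with meningeal fibroblasts, a cell type that also expresses *Apod*. Counts were summed per library and gate, and edgeR's quasi-likelihood test with library as a block and Benjamini-Hochberg adjustment was run over all genes with at least 20 counts. The 14 genes used by the rule or a gate were left out of all counts of calls. Since each set was gated on glial genes, the tests describe how the gated sets differ in the other genes. The fits had 2 residual degrees of freedom, the C57BL/6 members supplied only 7790 UMIs, and the *Nav1* KO members 257214.

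Against the 245 astrocyte-gate nuclei, 204 of 7511 tested genes were higher in the ensheathing glia (2.72%) and 256 were lower (3.41%). The named higher genes included genes of the neural crest, and the named lower genes included genes of glutamate uptake and the astrocyte filament gene *Gfap*. *Npy* was higher by 5.42 ± 0.49 on the log2 scale (log2 fold change ± SE, adjusted p = 2.34e-24), *Kctd12* by 5.50 ± 0.53 (adjusted p = 4.71e-22), *Sox10* by 4.12 ± 0.59 (adjusted p = 9.42e-10) and *Hey2* by 4.12 ± 0.54 (adjusted p = 1.12e-11). *Foxd3*, the water channel gene *Aqp1* and the lipoxygenase gene *Alox12* had 0 counts in the astrocyte gate. They were at least 39.7-fold, 20.2-fold and 19.5-fold higher against a floor of 3 counts over the gate. *Gdpd4*, with 100 counts in the members and 1 in the gate, was higher 202 times (35.4 to 8045), *Mybpc1*, a myosin-binding protein gene, 43.4 times (11.3 to 370) and *Erbb3* 57.5 times (15.2 to 486), with *Erbb3* at 0 in the 7 C57BL/6 members. *Slc1a2*, the main astrocyte glutamate transporter gene, stood at 257, 447 and 346 CPM in the members and at 5189, 3432 and 2942 CPM in the astrocyte gate, a difference of -3.38 ± 0.50 (adjusted p = 3.6e-09). The intermediate filament gene *Gfap* had 1 count in the members against 140 in the gate (ratio 0.0144, 0.000362 to 0.0816), and the deiodinase gene *Dio2* had 0 against 74 and was at least 12.2-fold lower. *Sox9*, the astrocyte lineage factor, differed by -3.62 ± 0.57 (adjusted p = 5.02e-08), *Sox2* by -3.10 ± 0.53 (adjusted p = 6.34e-07) and the GABA transporter gene *Slc6a11* by -3.64 ± 0.53 (adjusted p = 3.04e-09).

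The astrocyte comparison called 29 higher and 12 lower genes without the BTBR library and 25 and 31 without *Nav1* KO, each of them also called with all 3 libraries. Without C57BL/6 it called 277 and 324, of which 204 and 254 were called with all 3. Of 71 named genes that passed, 8 passed in every alternative, among them *Clca3a1*, *Gfap*, *Igf1*, *Kctd12*, *Npy*, *Phkg1* and *Slc1a2*. Without BTBR 44 of the 71 were not called, and without *Nav1* KO 52 were not, 25 of which had too few counts to be tested there. *Foxd3*, *Mybpc1* and *Sox10* were among the genes that did not pass in every alternative.

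Against the 1582 meningeal-fibroblast-gate nuclei, 298 of 12012 tested genes were higher in the ensheathing glia (2.48%) and 253 were lower (2.11%). The higher genes again included *Foxd3* and *Sox10*. *Mybpc1* and the non-coding gene *A330076C08Rik* had 0 counts in the fibroblast gate and were at least 116-fold and 91.6-fold higher, and *Foxd3*, with 59 counts against 2, was higher 238 times (63.1 to 2015). *Sox10* was higher by 4.88 ± 0.54 (adjusted p = 1.44e-16), *Npy* by 4.99 ± 0.59 (adjusted p = 1.1e-14) and *Kctd12* by 3.95 ± 0.49 (adjusted p = 3.2e-13). *Iqub* and *Ltbp2*, a latent TGF-beta binding protein gene, had 3 counts each in the gate and were higher 105 times (33.4 to 532) and 102 times (32.5 to 518). The named lower genes included genes of the meninges and vessels, and of the 8 with the lowest values all but *Col25a1* had 0 counts in the members. *Tfap2b*, a meningeal transcription factor gene, was at least 9.20-fold lower, *Adamts2*, a procollagen peptidase gene, at least 7.38-fold, *Aldh1a2*, a retinoic acid synthesis gene of the meninges, at least 7.26-fold. *Cdh5*, *Prg4*, *Lama1* and *Foxd2os* had bounds from 6.35-fold to 7.51-fold. Of the 5 fibroblast markers tested outside the gate, *Col1a1*, *Col1a2*, *Dcn* and *Igf2* were lower, with *Col1a2* at 0, 69.8 and 35.0 CPM in the members and 246, 282 and 344 CPM in the gate (-2.84 ± 0.61, adjusted p = 0.000254). *Vtn* did not pass (1.28 ± 0.52, adjusted p = 0.167), with 2182, 1410 and 832 CPM against 284, 626 and 401 CPM.

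The fibroblast comparison depended most on single libraries. Without BTBR 44 genes were higher and 0 lower, without *Nav1* KO 7 and 0, and without C57BL/6 431 and 381. The counts of 0 come from edgeR's test without BTBR and without *Nav1* KO. In those fits 411 of 10927 and 145 of 9498 tested genes were lower at an unadjusted p under 0.05. These unadjusted counts were not compared with the number that chance would give. DESeq2's Wald test on all 3 libraries called 118 lower. No lower gene named here therefore held in every alternative. Of 76 named genes that passed, *Afap1l2* and *Clca3a1* passed in every alternative. *Foxd3*, *Sox10*, *Npy* and *Kctd12* did not. Without BTBR 61 of the 76 were not called, and without *Nav1* KO 71 were not, 17 of which had too few counts to be tested there.

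Against the 398 oligodendrocyte-gate nuclei, 217 of 7751 tested genes were higher in the ensheathing glia (2.80%) and 246 were lower (3.17%). The members shared the lineage factor and the neuregulin receptor with the oligodendrocytes at levels that the test did not separate, and were lower in 7 of 8 tested oligodendrocyte markers. *Sox10* differed by 0.24 ± 0.48 (adjusted p = 0.974) and *Erbb3* by 0.76 ± 0.51 (adjusted p = 0.676). *Mbp*, the myelin basic protein gene, stood at 385, 195 and 50.5 CPM in the members and at 3035, 5222 and 4589 CPM in the gate (-5.31 ± 0.68, adjusted p = 6.25e-12), and *Mal* differed by -4.75 ± 0.72. Lowest were genes at 0 in the members, with *Kndc1* at least 23.3-fold lower, *Opalin*, a myelin membrane protein gene, at least 20.5-fold and *St18* at least 10.3-fold, followed by *Carns1*, *Galnt6*, *Adamts4*, *Tnni1* and *Nfe2l3* with bounds from 6.98-fold to 11.4-fold. Higher genes included *Slc43a3*, at 0 in the gate and at least 31.5-fold higher, *Gdpd4*, higher 210 times on 1 gate count (36.8 to 8376), *Mybpc1*, higher 90.3 times (15.4 to 3648), and *Foxd3*, higher 61.9 times (16.4 to 523). *Npy* was higher by 4.20 ± 0.55 (adjusted p = 2.86e-11), *Kctd12* by 4.67 ± 0.58 (adjusted p = 2.28e-12) and *Vtn* by 4.36 ± 0.56 (adjusted p = 6.25e-12).

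The oligodendrocyte comparison called 47 higher and 50 lower genes without BTBR, 17 and 4 without *Nav1* KO, and 369 and 350 without C57BL/6. Of 72 named genes that passed, 8 passed in every alternative, namely *Clca3a1*, *Igf1*, *Kctd12*, *Mal*, *Mbp*, *Npy*, *Ptn* and *Vtn*. Without BTBR 38 of the 72 were not called, and without *Nav1* KO 63 were not, 23 of which had too few counts to be tested there. *Clca3a1*, a gene of the calcium-activated chloride channel regulator family, was the 1 named gene that passed in every alternative of all 3 comparisons, with 59 counts in the members and 2, 4 and 2 in the astrocyte, fibroblast and oligodendrocyte gates.

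**Figure D3:**
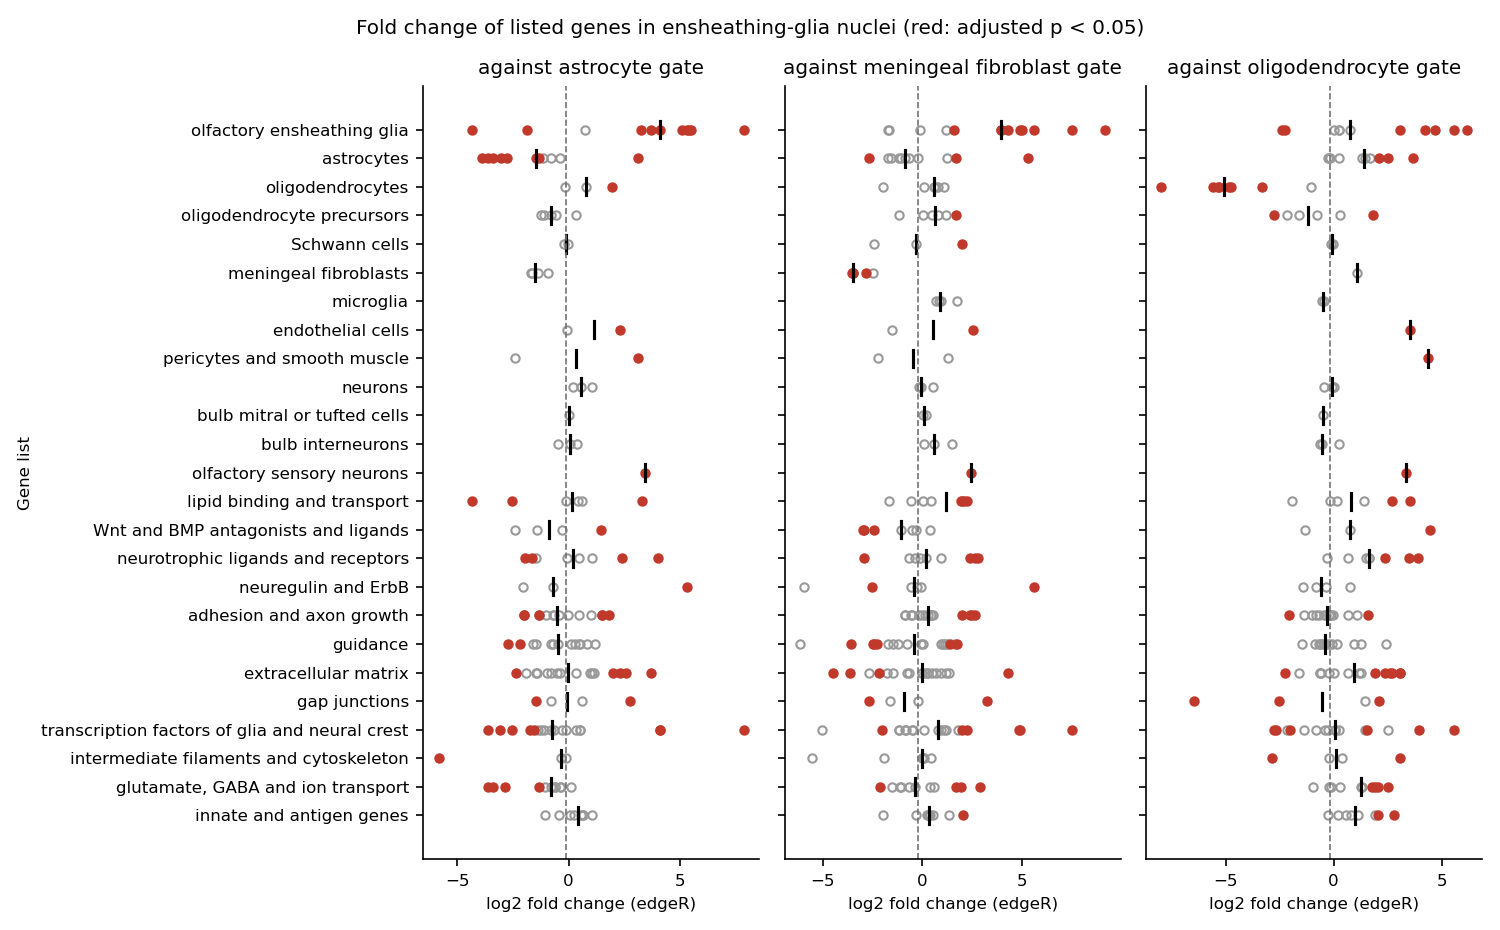
Log2 fold change of each listed gene in ensheathing-glia nuclei over the astrocyte, meningeal fibroblast and oligodendrocyte gates, grouped by gene list (filled, adjusted p below 0.05 by edgeR's quasi-likelihood test; open, not past it). Black ticks mark list medians and the dashed lines the medians of all tested genes, at -0.10, -0.20 and -0.15. The median of the ensheathing-glia markers lies on the higher side against astrocytes and fibroblasts. The lists were chosen with earlier results of these data known.

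The listed genes are described by their counts beside the medians of all tested genes, which were -0.10, -0.20 and -0.15 on the log2 scale against the astrocyte, fibroblast and oligodendrocyte gates. The lists were chosen with earlier results of these data known, and the rule and gates used markers of the same cell types. The counts for cell type markers are therefore a description and not a test of what the nuclei are. Calls of genes that are not named above as passing in every alternative were lost in at least 1 of them, most often without BTBR or *Nav1* KO. Of the ensheathing-glia markers outside the rule, 8 of 11 tested were higher than in astrocytes (median 4.12) with *Lcat* and *Islr* lower, 9 of 13 were higher than in fibroblasts (median 3.95), and 5 of 11 were higher than in oligodendrocytes (median 0.76) with 2 lower, among them *Cryab*. Of the astrocyte markers, 7 of 11 were lower than in astrocytes and 1 was higher, *Agt*, the angiotensinogen gene (median -1.47). Against fibroblasts *Agt* and *Slc4a4* were higher and *Gjb6* lower (11 tested, median -0.87), and against oligodendrocytes 3 of 10 were higher (median 1.39). Of the oligodendrocyte markers, 7 of 8 were lower than in oligodendrocytes (median -5.08, or -4.80 with *Opalin* at its bound), while 1 of 3 was higher than in astrocytes (*Aspa*, median 0.78) and 0 of 6 passed against fibroblasts (median 0.61). *Agt* and *Aspa* were at 0 in the 7 C57BL/6 members, and their sets overlapped.

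Of the secreted trophic factors, *Ptn* and *Igf1* were higher than in each of the other gates. *Ptn*, which encodes the heparin-binding growth factor pleiotrophin, stood at 7959 (6102 to 10203), 6756 (6168 to 7386) and 5746 CPM (5457 to 6047) in the members and at no more than 1103 CPM in any library of the other gates. It was higher than in astrocytes by 2.38 ± 0.48 (adjusted p = 4.91e-05), than in fibroblasts by 2.39 ± 0.67 (adjusted p = 0.0112) and than in oligodendrocytes by 3.49 ± 0.56 (adjusted p = 1.02e-07). *Igf1*, the insulin-like growth factor gene, stood at 385, 265 and 132 CPM and was higher in all 3 comparisons by 4.03 ± 0.56, 2.66 ± 0.44 and 3.92 ± 0.62. Of the neurotrophic ligands and receptors tested, 2 of 8 were higher and 2 lower than in astrocytes (the receptor gene *Ntrk2* and *Vegfa* lower, median 0.19), 3 of 9 higher and 1 lower than in fibroblasts (*Gfra1* with *Ptn* and *Igf1*, and *Igfbp2* lower, median 0.16), and 3 of 8 higher than in oligodendrocytes (*Mdk* with *Ptn* and *Igf1*, median 1.63). Among Wnt and BMP genes, *Bmp7* stood at 128, 140 and 128 CPM and was higher than in oligodendrocytes by 4.46 ± 0.81 (adjusted p = 3.92e-06) and than in astrocytes by 1.47 (adjusted p = 0.0304), in each the only call of 3 and 4 tested (medians 0.77 and -0.86), and against fibroblasts *Sfrp1*, *Bmp4* and *Wnt5a* were lower of 7 tested (median -1.10). *Erbb3* was the only neuregulin and ErbB gene that was higher, of 3, 6 and 4 tested, and it passed against astrocytes and fibroblasts (medians -0.71, -0.42 and -0.58), with *Egfr* lower than in fibroblasts.

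Adhesion genes of axon growth were partly higher. The neural cell adhesion gene *Ncam1* stood at 1669, 1424 and 1800 CPM in the members, and was higher than in astrocytes by 1.82 ± 0.41 (adjusted p = 0.000443) and than in fibroblasts by 2.63 ± 0.56 (adjusted p = 0.000233). *Chl1*, a close homolog of L1, was higher in all 3 comparisons, by 1.51 ± 0.42, 2.50 ± 0.44 and 1.60 ± 0.48. Of the adhesion list 3 of 14 tested were higher than in astrocytes, with 3 lower, among them *Nrcam* and *Cadm1* (median -0.53), 4 of 15 were higher than in fibroblasts (*Ncam1*, *Ncam2*, *Chl1*, *Cdh19*, median 0.30) and 1 of 14 was higher than in oligodendrocytes with *Cdh2* lower (median -0.31). Guidance genes gave no call among 14 tested against oligodendrocytes (median -0.38), *Nrp2* and *Robo2* lower among 13 against astrocytes (median -0.46), and *Sema6a* and *Plxnb1* higher with *Sema3a*, *Nrp1*, *Slit2* and *Robo1* lower among 18 against fibroblasts (median -0.44, or -0.42 with 1 gene at its bound). Without *Nav1* KO the value of *Sema6a* was -0.40. In the matrix list, *Fbln2* was higher in all 3 comparisons (3.70 ± 0.49, 4.29 ± 0.47 and 3.08 ± 0.53). The laminin gene *Lama4*, the nidogen gene *Nid1* and *Sparc* were higher than in astrocytes and oligodendrocytes, giving 4 higher and 1 lower (*Mgp*) of 16 tested (median -0.03) and 6 higher and 1 lower (*Tnr*) of 16 (median 0.93, with *Sparcl1* and *Timp3*). Against fibroblasts *Fbln2* was the only higher gene of 19, and *Lama2*, *Fn1* and *Mgp* were lower (median 0.00).

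Among transcription factors of glia and neural crest, *Sox10*, *Foxd3* and *Hey2* were higher and *Sox2*, *Sox6*, *Sox9*, *Id1* and *Id3* lower than in astrocytes (18 tested, median -0.73). Against fibroblasts *Sox5* and *Sox8* joined the higher genes and *Id1* was lower (19 tested, median 0.80), and against oligodendrocytes *Foxd3*, *Hey2* and *Id3* were higher and *Sox2*, *Olig1* and *Zeb2* lower (17 tested, median 0.06). The transport list had 4 of 11 lower than in astrocytes (among them *Slc1a2*, *Slc1a3* and *Slc6a11*, median -0.78). It had 4 of 10 higher than in oligodendrocytes (among them *Atp1b2*, *Slc4a4* and *Slc7a11*, median 1.28), and 3 higher and 1 lower of 11 against fibroblasts (*Slc4a4*, *Kcnj10* and *Kcnj16* against *Slc7a11*, median -0.37). Of the gap junction genes, the oligodendrocyte connexin gene *Gjc3* stood at 257, 112 and 346 CPM in the members, higher than in astrocytes by 2.75 ± 0.48 and than in fibroblasts by 3.23 ± 0.48, and lower than in oligodendrocytes by 2.54, whereas *Gja1* was higher than in oligodendrocytes. *Gjb6* was lower than in astrocytes and fibroblasts, out of 4 tested in each comparison (medians -0.09, -0.91 and -0.54). Lipid genes gave *Plin2*, a lipid droplet gene, as higher in all 3 comparisons, with *Abca8a* and *Scd2* against fibroblasts and the apolipoprotein gene *Apoe* against oligodendrocytes, and *Fabp5* and *Lcat* lower than in astrocytes (6, 8 and 6 tested, medians 0.13, 1.18 and 0.78). *Plin2* stood at 0, 14.0 and 128 CPM in the members, and without the *Nav1* KO library its value against fibroblasts was -0.83. *Apoe* stood at 13864, 10455 and 11737 CPM in the members and at 6697, 6966 and 7098 CPM in the astrocyte gate, a difference that did not pass (0.41 ± 0.54, adjusted p = 0.903). Of filament genes *Gfap* was lower than in astrocytes, and *Vim* higher and *Mapt* lower than in oligodendrocytes (3, 6 and 4 tested, medians -0.36, 0.00 and 0.10), and of innate genes the complement gene *C4b* was higher than in fibroblasts and, with *H2-K1*, than in oligodendrocytes (8, 9 and 8 tested, medians 0.40, 0.32 and 0.97).

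Markers of other cell types that the nuclei could hold gave few calls. Neuronal markers outside the rule summed to 514, 907 and 723 CPM in the members against 2534, 2360 and 2237 CPM in all other nuclei, and none of 3 tested passed in any comparison (medians 0.55, -0.05 and -0.08). Mitral and tufted cell markers summed to 0, 97.7 and 54.4 CPM, with no call (1, 2 and 1 tested, medians -0.01, 0.10 and -0.50), and bulb interneuron markers, led by *Meis2*, to 514, 279 and 486 CPM, with no call among 3 (medians 0.04, 0.56 and -0.52). Oligodendrocyte precursor markers summed to 1027, 963 and 1139 CPM, of which *Ptprz1* held 1027, 768 and 1050 CPM. *Ptprz1* was higher than in fibroblasts and oligodendrocytes, with *Olig1* lower than in the latter (5, 6 and 6 tested, medians -0.78, 0.64 and -1.18). Schwann cell markers gave *Cdh19* alone, against fibroblasts (2, 3 and 2 tested, medians -0.12, -0.33 and -0.06), and fibroblast markers outside the gate gave no call against astrocytes (4 tested, median -1.51) or oligodendrocytes (1 tested, 1.08). Microglial markers summed to 128, 55.8 and 77.8 CPM with no call (0, 4 and 2 tested, medians 0.88 and -0.48 in the latter comparisons). Endothelial markers gave *Cldn5*, a tight junction gene, as higher in all 3 comparisons (2, 2 and 1 tested, medians 1.13, 0.51 and 3.52), at 0, 69.8 and 159 CPM in the members, with a UMI in 18 of the 132 *Nav1* KO members. Pericyte markers gave *Vtn*, which led the members, as higher than in astrocytes and oligodendrocytes (2, 2 and 1 tested, medians 0.35, -0.46 and 4.36), while the defining pericyte genes *Rgs5*, *Kcnj8* and *Acta2* were at 0 in C57BL/6 and BTBR members. In *Nav1* KO *Acta2* was at 0 as well, and *Rgs5* and *Kcnj8* each had a UMI in 1 member. The only sensory neuron gene tested, *Gng13*, was higher in all 3 comparisons (3.44, 2.42 and 3.33), and 31 of its 38 counts came from the single nucleus described above, without which it stood at 23.5 CPM in the *Nav1* KO members. Without that library its value against fibroblasts was -0.90. The part of these other cell types in the results was not tested.

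Gene levels within the ensheathing glia were then set side by side between *Nav1* KO and BTBR, since the 7 C57BL/6 members were too few for most genes, where 1 count was worth 128 CPM. With 1 library each these ratios carry no test. Among 1422 genes with at least 100 CPM in either library and at least 30 counts over both, 122 had a *Nav1* KO to BTBR ratio of at least 2 (8.58%) and 69 a ratio of at most 0.5 (4.85%), with a median of 0.975. Of the 82 listed genes measured, 13 reached 2 and 3 fell to 0.5, with a median of 1.09. The 9 ensheathing-glia markers measured outside the rule all lay within 2-fold, with a median of 1.32. *Npy* had a ratio of 1.32 (1.04 to 1.68), *Kctd12* of 1.17 (0.811 to 1.72), *Foxd3* of 0.921 (0.486 to 1.87) and *Ptn* of 0.851 (0.767 to 0.944). None of the 10 transcription factors measured passed 2-fold in either direction, which does not set them apart from most measured genes.

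Among secreted genes, *Igfbp5*, an insulin-like growth factor binding protein gene, stood at 276 CPM in *Nav1* KO and 55.8 CPM in BTBR (ratio 4.94, 1.85 to 18.6), where all other nuclei gave 1.26. *Cst3*, the cystatin C gene, stood at 2103 and 1033 CPM (2.04, 1.59 to 2.63), with 1.27 in the other nuclei. *Igf1*, at 132 and 265 CPM (0.498, 0.276 to 0.925), and *Vegfa*, at 128 and 363 CPM (0.353, 0.205 to 0.615), lay the other way, with 1.07 and 0.871 in the other nuclei. *Gjc3* had a ratio of 3.1 (1.51 to 7.40) and *Aspa*, the aspartoacylase gene of oligodendrocytes, of 4.01 (1.64 to 12.7), where the other nuclei gave 0.958 and 1.65. *Glul*, the glutamine synthetase gene, had a ratio of 2.20 (1.21 to 4.42).

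*Prex2*, *C2cd5* and *Gng13* were at 0 in BTBR and at 124, 124 and 144 CPM in *Nav1* KO, or at least 2.97, 2.97 and 3.44-fold higher, which are bounds and give them no place in the order of ratios. The highest ratios with a BTBR count were those of *S100a5* (13.9, 2.39 to 561) and the kainate receptor gene *Grik3* (9.47, 1.59 to 385), each on 1 BTBR count. *Gng13* and *S100a5* stood at 23.5 and 19.6 CPM without the nucleus that held sensory neuron transcripts, below the 41.9 CPM that 0 counts allow in BTBR. The lowest were *Ntsr2* (0.251, 0.143 to 0.436), a neurotensin receptor gene of astrocytes, *Ascc3* (0.253, 0.131 to 0.486), *Mir124-2hg* (0.263, 0.127 to 0.541), *Lncpint* (0.279, 0.127 to 0.611) and *Ntng1* (0.291, 0.155 to 0.548), of which the other nuclei gave ratios of 0.892, 0.880, 1.04, 0.799 and 0.966. *Ntsr2* had 30 counts in the 35 BTBR members and 27 in the 132 *Nav1* KO members.

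**Figure D4:**
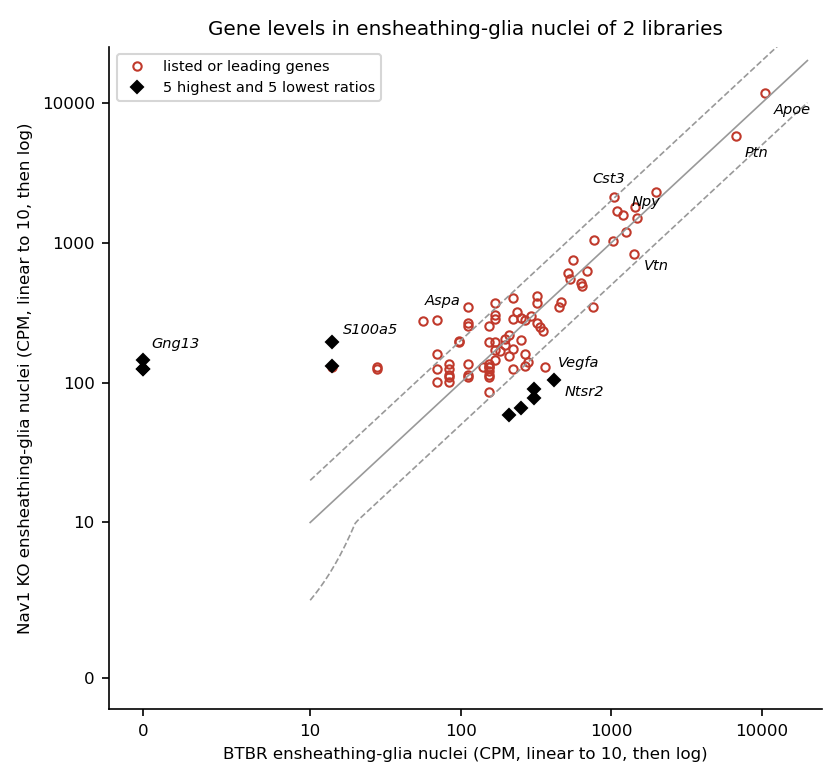
Level (CPM, both axes linear up to 10 and logarithmic above) of listed and leading genes in the ensheathing-glia nuclei of the *Nav1* KO library against those of the BTBR library, 1 point per gene, with dashed lines at 2-fold. Most points lie between the lines. Diamonds on the higher side mark *Prex2*, *C2cd5* and *Gng13*, at 0 in BTBR and known only as bounds, and *S100a5* and *Grik3*, the highest ratios with a BTBR count. The other diamonds mark the 5 lowest ratios.

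*Nav1* itself had 1, 3 and 17 counts in the members (128, 41.9 and 66.1 CPM), and 345, 146 and 265 CPM in all other nuclei. These 3′ counts do not check the knockout, because the deletion lies in the first exon and the counted tags lie at the transcript's 3′ end. Its relatives *Nav2* (0, 265 and 159 CPM) and *Nav3* (257, 97.7 and 73.9 CPM) were also found in the members. *Xist*, at 0, 0 and 3.89 CPM in the members, was close to 0, as the labels give male mice for all 3 libraries.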

How the data were processed

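Each library was nuclei of PFC, sorted in C57BL/6 and *Nav1* KO (not stated for BTBR), captured with the 10x Genomics 3′ v3.1 kit. The authors deposited filtered matrices of UMI counts, made by Cell Ranger 6.0.0 against mm10, and barcodes numbered 15402, 15238 and 14623 in C57BL/6, BTBR and *Nav1* KO. Nuclei were kept from 200 genes upward when mitochondrial counts were below 10%, the filter the study states, which left 14630, 14778 and 14056. No doublet caller was run. Leaving out the 10% of nuclei with the most UMIs was an alternative. No member lay among those nuclei, so it cannot check the members for doublets. The members and gene lists were chosen with earlier results of these data known. Members were taken out of the other gates, each of which also excluded the markers of the others and allowed 1 neuronal UMI. Mitral and tufted nuclei held at least 2 UMIs over *Cdhr1*, *Eomes*, *Tbx21* and *Doc2g* and at least 1 of *Slc17a7* or *Slc17a6*.

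Intervals are at 95% (Clopper-Pearson for shares, exact Poisson for CPM, exact binomial split for ratios), and 0 counts were given the limit of 3 counts. Sums per library and gate were tested with edgeR 4.0.16 (TMM, library as block, quasi-likelihood, adjusted p below 0.05) in R 4.3.3, with DESeq2 1.42.0 as an alternative. On simulated data this test called most large changes, missed part of the moderate ones, more so at low counts, and called none of the small ones, so a gene without a call may still differ. SE is the log2 fold change divided by the root of F. Named genes were the rule and listed genes, the 15 leading genes, per comparison the 8 highest and 8 lowest called genes with at least 50 CPM in 1 gate and 1 direction in 3 libraries, the 5 highest and 5 lowest ratios between libraries, and *Nav1*, *Nav2*, *Nav3*, *Xist* and *Nnt* as label checks. In choosing the ratios, a level of 0 in BTBR was placed first, although such a gene has only a bound. *Nnt* had 0, 1 and 2 counts in the members (0, 14.0 and 7.78 CPM), too few to compare the libraries. In all other nuclei it stood at 20.2, 13.5 and 15.1 CPM. Other steps ran in Python 3.11.15 (pandas 2.3.3, scipy 1.17.1, numpy 2.4.6). Other settings tried were a stricter and a looser rule, other filters and scaling, no block, thinning and leaving out each library. Some listed genes enter the counts and sums of their lists and are not reported here by name.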

Additional observations from a re-analysis of the deposited data

How the results depend on the processing

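The order of the 3 shares of ensheathing-glia nuclei (lowest in C57BL/6, highest in *Nav1* KO) was the same in every alternative, while their size moved. The looser rule gave 0.198, 0.467 and 1.96% in C57BL/6, BTBR and *Nav1* KO, thinning to 1000 UMIs gave 0.0163, 0.0946 and 0.625%, and nuclei without a neuronal UMI as the denominator gave 0.132, 0.670 and 2.84%. In BTBR and *Nav1* KO the stricter rule gave 0.162 and 0.569%, and allowing no neuronal UMI 0.156 and 0.704%. The *Nav1* KO to BTBR ratio was 6.60 after thinning. DESeq2's Wald test called 76 higher and 108 lower genes against astrocytes, 146 and 118 against fibroblasts and 139 and 152 against oligodendrocytes. The stricter rule gave 194 higher and 125 lower genes against fibroblasts and, between libraries, 77 genes at a ratio of at least 2 and 38 at a ratio of at most 0.5. Without the library block 411 genes were lower than in fibroblasts and 351 higher than in oligodendrocytes.

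Leaving out 1 library gave 25 to 277 higher and 12 to 324 lower genes against astrocytes, 7 to 431 and 0 to 381 against fibroblasts, and 17 to 369 and 4 to 350 against oligodendrocytes. Without *Nav1* KO replicate 1 *Gng13* (-0.90), *Plin2* (-0.83) and *Sema6a* (-0.40) had log2 values below 0 against fibroblasts and no call, where leaving out another library gave 2.43 to 3.24, 2.39 to 2.59 and 1.84 to 1.96. The cause of these shifts was not tested, beyond the fewer samples in each such fit. Apart from leaving out a library, 51 of 71, 47 of 76 and 51 of 72 named genes passed in all alternatives, a gene with no adjusted p counting as not passed. The alternatives chosen after seeing the data were leaving out members in the fibroblast gate (315 higher and 314 lower genes against fibroblasts) and leaving out the *Nav1* KO nucleus with the most *Gng13* UMIs (312 and 255). No paired analysis was possible because each group was 1 library and the replicate numbers only name it, although library entered the fits as a block. The 7790 UMIs of the C57BL/6 members limit every C57BL/6 level, where 0 counts allow up to 385 CPM.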
